A study of Mus musculus with 12 samples.

Results

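The 10 cytokine genes Il1b, Il1rn, Tnf, Tnfsf10, Il15, Il15ra, Il18, Il18bp, Il27 and Il10 are described here in mouse bone marrow-derived macrophages (BMMs) of 4 conditions. They were chosen by symbol, as genes of the IL-1, TNF, IL-15, IL-18, IL-27 and IL-10 systems with their antagonists, and all 10 were found among the 16516 symbols of the deposited tables. Il15ra encodes a receptor chain that presents its ligand and is not an antagonist.

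Cytokines of this group are the signals by which a macrophage starts, sustains and limits inflammation. Several are balanced by a partner encoded elsewhere in the genome: the IL-1 receptor antagonist occupies the IL-1 receptor without signalling, and the IL-18 binding protein is a secreted decoy that captures IL-18. STING is a sensor adaptor of the endoplasmic reticulum that responds to cyclic dinucleotides made by cGAS on cytosolic DNA, and its activation in macrophages drives IRF3 and NF-kappaB and, through them, type I interferon and inflammatory cytokines. DMXAA is a small molecule that binds mouse STING directly.

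RNA-seq was made from 4 groups of cultured BMMs: MGMT KO cells treated with DMXAA, MGMT KO cells treated with the vehicle DMSO, WT (WTfl/fl) cells treated with DMXAA and WT (WTfl/fl) cells treated with DMSO. Each treatment lasted 24 h, and each group has 3 libraries, 12 in all. MGMT is a DNA repair protein that takes alkyl groups off guanine, and the design asks whether its loss alters the answer of macrophages to a STING agonist. The series text gives the DMXAA dose as 10 mg/ml. The labels used here name no Cre driver, age or sex, all 12 libraries carry 1 batch label, and the labels do not state that replicate libraries are of separate mice, so p-values measure only the spread between these libraries.

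Depth ranged over 79.5 to 98.1 M reads per library (M for mega), and a floor of 3 reads is at most 0.0377 reads per M reads (RPM). Mgmt had 51, 61 and 33 reads in KO under DMXAA against 107, 85 and 99 in WT under DMXAA, and 121, 141 and 162 in KO under DMSO against 263, 245 and 243 in WT under DMSO, so the libraries labelled KO held fewer Mgmt reads but were not free of them. All 8 macrophage markers were detected with a summed level of 9396 to 9485 RPM in KO under DMXAA, 16736 to 17543 in KO under DMSO, 11478 to 11719 in WT under DMXAA and 20594 to 21044 in WT under DMSO. The gap between genotypes in this sum was mostly Lyz2, with a mean of 2131 RPM in KO and 4018 in WT under DMXAA and 6991 in KO and 10833 in WT under DMSO, while under DMSO Adgre1 averaged 4521 in KO and 4525 in WT and Csf1r 2509 in KO and 2334 in WT. T and NK cell markers summed to at most 0.065 RPM in any library, with Cd3d, Trac and Cd8a at 0.

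The starts of the genes with the largest rises (Tnfsf10, Il1rn and Il18bp) and of those that fell or moved least (Il1b and Tnf) are shown to let their proximal sequence be compared. Each line gives the 250 bases before a RefSeq transcript start in the GRCm38.p6 assembly, 5′ to 3′ on the gene's own strand. Capitals mark letters found by search on either strand: the interferon-stimulated response element core TTTCNNTTT in Tnfsf10 and Il1rn, and the TATA box letters TATAAA in Il1b and Tnf. Il1rn also held TATAAA after the start shown, outside the printed bases.
Tnfsf10 (chr3:27316827-27317076, plus strand): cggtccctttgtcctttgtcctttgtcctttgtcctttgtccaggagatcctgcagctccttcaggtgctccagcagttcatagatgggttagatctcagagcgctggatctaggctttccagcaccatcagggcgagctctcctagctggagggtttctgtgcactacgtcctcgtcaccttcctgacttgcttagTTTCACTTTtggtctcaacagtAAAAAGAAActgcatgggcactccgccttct
Il1rn (chr2:24345121-24345370, plus strand, 1 of 3 annotated starts): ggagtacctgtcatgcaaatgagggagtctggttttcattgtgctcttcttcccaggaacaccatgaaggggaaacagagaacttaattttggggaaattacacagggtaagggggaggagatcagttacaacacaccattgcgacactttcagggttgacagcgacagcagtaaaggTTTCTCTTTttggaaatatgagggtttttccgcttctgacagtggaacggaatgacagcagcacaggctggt
Il18bp (chr7:102018233-102018482, minus strand): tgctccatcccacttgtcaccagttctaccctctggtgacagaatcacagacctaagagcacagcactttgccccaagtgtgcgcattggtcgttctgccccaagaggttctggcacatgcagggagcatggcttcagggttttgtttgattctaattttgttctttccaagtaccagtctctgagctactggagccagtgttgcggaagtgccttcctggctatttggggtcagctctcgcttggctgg
Il1b (chr2:129371140-129371389, minus strand): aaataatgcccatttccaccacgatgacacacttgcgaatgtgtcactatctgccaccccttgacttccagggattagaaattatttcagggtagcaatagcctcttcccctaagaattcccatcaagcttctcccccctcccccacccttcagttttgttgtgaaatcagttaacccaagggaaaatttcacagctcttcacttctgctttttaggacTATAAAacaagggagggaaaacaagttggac
Tnf (chr17:35202008-35202257, minus strand): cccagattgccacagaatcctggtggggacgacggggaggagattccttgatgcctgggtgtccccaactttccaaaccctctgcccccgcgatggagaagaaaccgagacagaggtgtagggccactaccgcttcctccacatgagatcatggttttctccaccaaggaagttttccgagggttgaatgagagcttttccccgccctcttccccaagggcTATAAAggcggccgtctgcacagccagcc

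Promoter sequence was at hand for 7 of the 10 genes, not for Il15, Il27 or Il10. In windows of 250 bases before to 50 after each start, none of the 7 genes held, on either strand, the full response element (TTTCNNTTT followed by C), the GAS letters TTCNNNGAA, the kappaB letters GGGA and TTTCC with any base or with C between them, or the CRE letters TGACGTCA, which occurred in 3.44%, 8.3%, 0.411%, 0.155% and 1.79% of all 32851 promoters of the table. The shorter core TTTCNNTTT, which lies within the full element and was added after the longer motifs had no match, occurred in 3 of the 7 genes. Counted by promoter, since some genes have several starts, it was in 4 of the 10 of these genes, against 10.6% of all promoters. Tnfsf10 held it at positions -53 and -31 from the start, Il1rn at -72 from the start shown and Il15ra at 25. Of the other Il1rn starts, one held the core at position 8, and the most upstream, at the 5′ end of the gene, held none of the letters searched. The Il18bp window lies within the annotated gene, whose 5′ end is at 102018690, and the bases before that end were not searched. TATAAA, also not among the motifs first planned, occurred in 4 of the 7 genes. Counted by promoter, it was in 4 of the 10 of these genes, against 13.6% of all promoters. It lay at -31 in Il1b, at -29 in Tnf, at -175 in Il18 and at 14 from the Il1rn start shown. Genes that rose with DMXAA thus held it too. A match describes letters only, and no match says only that these letters are not in the window.

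The answer of the 10 genes to DMXAA was mostly upward in both genotypes. Over all tested genes, 66.6% were called in KO (33.7% higher and 32.9% lower) and 62.8% in WT (31.7% higher and 31.1% lower), called meaning a limma adjusted p below 0.05. Of the 10 cytokine genes, 8 rose, 1 fell and 1 was not called in KO, and 9 rose and 1 fell in WT. In KO, libraries of the groups did not overlap for 71% of all genes (35.8% higher and 35.2% lower under DMXAA), and for 9 of the 10 (8 higher and 1 lower). In WT they did not overlap for 68.8% of all genes (34.7% higher and 34% lower), and for all 10 (9 higher and 1 lower). The median log2 change of the cytokine genes was 2.72 in KO and 2.48 in WT, while the median over all tested genes was -0.0033 in KO and -0.0027 in WT. Changes of at least 2-fold were called for 9 of the 10 genes in each genotype, against 20.1% of all genes in KO and 18.8% in WT. The 10 genes together took 0.089 to 0.0933% of the reads in KO under DMXAA against 0.00914 to 0.00958% in KO under DMSO, and 0.0956 to 0.1% in WT under DMXAA against 0.0105 to 0.0107% in WT under DMSO. In bulk samples, fewer cells of a kind and less RNA per cell cannot be told apart.

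**Figure D1:**
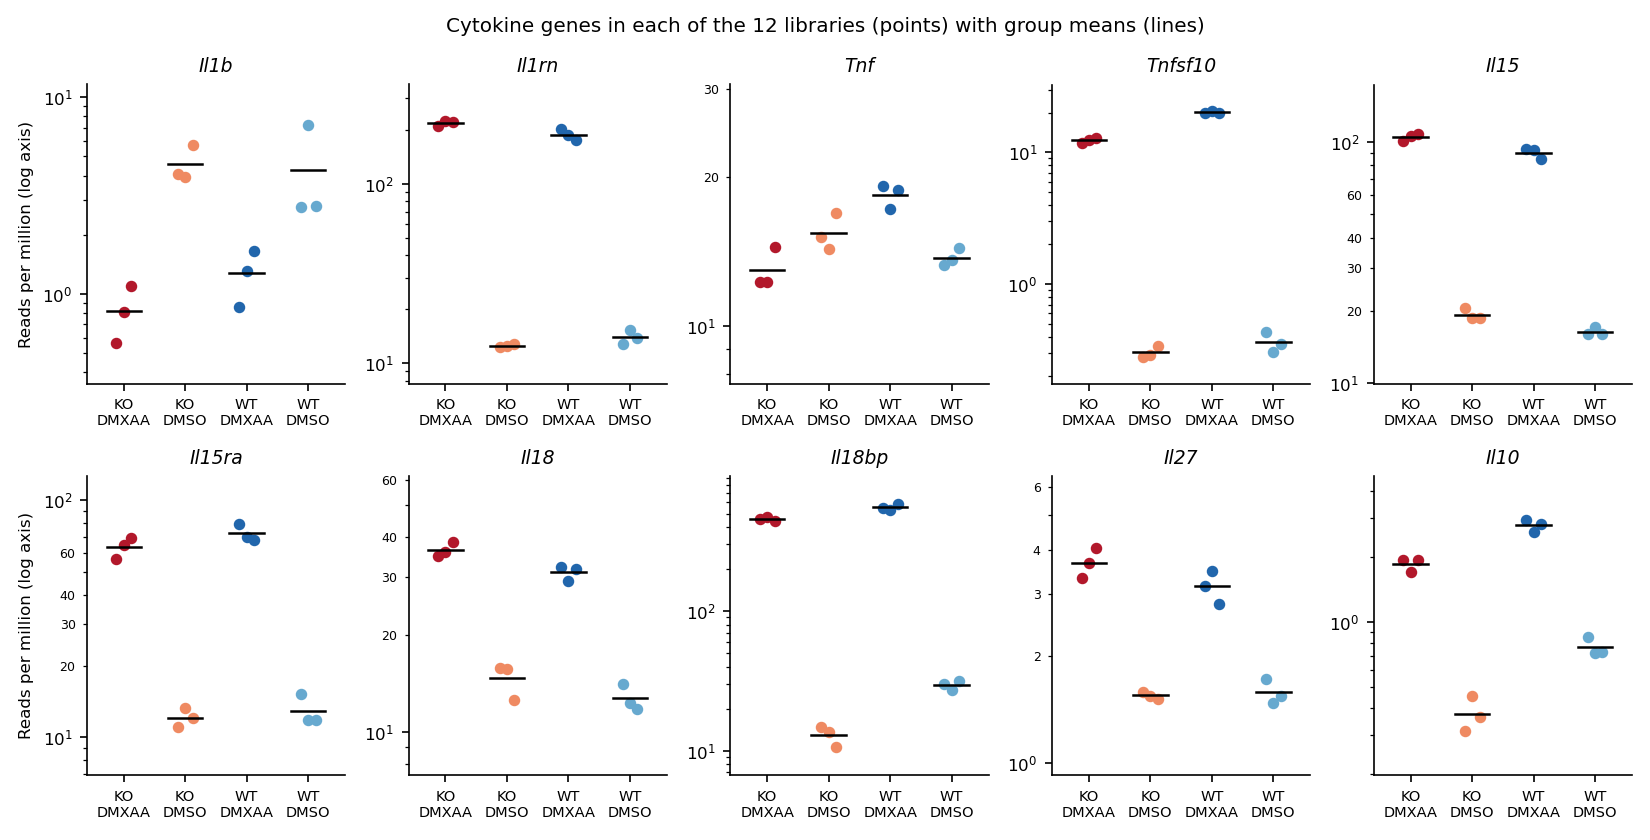
Reads per M reads in listed genes (RPM, log axis) of the 10 cytokine genes, 1 panel per gene; each point is 1 library and each line a group mean, with 3 libraries in each of KO DMXAA, KO DMSO, WT DMXAA and WT DMSO. A set of 8 genes stands higher in every DMXAA library than in any DMSO library of the same genotype, Il1b stands lower, and Tnf overlaps between DMXAA and DMSO in KO.

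The IL-1 pair moved apart. Values per library are the authors' normalized counts, scaled within a table of 6 libraries (for the responses, the table of each genotype), and log2 changes with their standard errors (SE) are from limma on log2(normalized count + 1) with 3 libraries per group. Il1b (chromosome 2, 129364570 to 129371139, minus strand, mm10) encodes the inflammatory cytokine IL-1 beta, made as a precursor that caspase-1 cuts. Its normalized counts were 57.8, 84.9 and 114 in KO under DMXAA against 325, 306 and 460 in KO under DMSO, and 83.2, 129 and 163 in WT under DMXAA against 219, 566 and 220 in WT under DMSO. All DMXAA libraries lay below all DMSO libraries of the same genotype, and replicate 2 of WT under DMSO stood well above the other two. Il1b fell by 2.10 on the log2 scale in KO (SE 0.244, adjusted p = 2.68e-05) and by 1.31 in WT (SE 0.363, adjusted p = 0.00983), which placed it at the 3.42 and the 7.49 percentile of all tested genes. Without replicate 2 of WT under DMSO the log2 change in WT was -0.86, still called.

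Il1rn (chromosome 2, 24336853 to 24351494, plus strand) encodes the IL-1 receptor antagonist. It had normalized counts of 21848, 23431 and 23093 in KO under DMXAA against 979, 973 and 1029 in KO under DMSO, and of 19527, 18354 and 17368 in WT under DMXAA against 1009, 1197 and 1092 in WT under DMSO. The groups were far apart and the libraries within a group close together. The rise was 22.9-fold in KO (log2 4.52, SE 0.0506, adjusted p = 6.2e-13) and 16.8-fold in WT (log2 4.07, SE 0.0724, adjusted p = 3.44e-11).

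Of the TNF family ligands, Tnfsf10 had the largest fitted response of the 10 genes in WT, and Tnf the smallest in each genotype. In KO the fitted response of Tnfsf10 (5.68, SE 0.133) was close to that of Il18bp (5.54, SE 0.094), and Il18bp had the larger value with a pseudocount of 10 or without replicate 1 of KO under DMSO. Tnfsf10 (chromosome 3, 27317028 to 27342427, plus strand) encodes TRAIL, a ligand that can trigger apoptosis through death receptors. It was nearly silent under DMSO, with normalized counts of 1219, 1293 and 1338 in KO under DMXAA against 22.4, 22.9 and 27.3 in KO under DMSO, and of 1945, 2016 and 1968 in WT under DMXAA against 34.5, 23.7 and 27.7 in WT under DMSO. These are rises of 51.1-fold in KO (log2 5.68, SE 0.133, adjusted p = 8.86e-11) and 67.4-fold in WT (log2 6.07, SE 0.143, adjusted p = 2.24e-10). Under DMSO it rested on 25 to 41 reads per library.

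Tnf (chromosome 17, 35199381 to 35202007, minus strand) encodes the inflammatory cytokine TNF, released from the membrane by ADAM17. Its normalized counts were 1263, 1283 and 1504 in KO under DMXAA and 1198, 1119 and 1360 in KO under DMSO, with overlap between the groups. In WT they were 1861, 1694 and 1848 under DMXAA and 1051, 1057 and 1131 under DMSO, with no overlap. Tnf rose 1.67-fold in WT (log2 0.74, SE 0.0692, adjusted p = 7.9e-06). In KO the log2 change was 0.14 (SE 0.0942, 95% interval -0.07 to 0.35, adjusted p = 0.215), and after rescaling of the libraries to equal totals it was -0.25 (adjusted p = 0.0275), so its direction in KO depends on the scaling.

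Il15 and Il15ra rose side by side. Il15 (chromosome 8, 82331632 to 82403222, minus strand) encodes a cytokine that keeps NK cells and memory T cells alive, and Il15ra (chromosome 2, 11705290 to 11734317, plus strand) the receptor chain that carries it to the surface and presents it to neighbouring cells. Il15 had normalized counts of 10415, 11080 and 11291 in KO under DMXAA against 1620, 1453 and 1500 in KO under DMSO, and of 9033, 9128 and 8350 in WT under DMXAA against 1268, 1327 and 1254 in WT under DMSO. Its rise was 7.17-fold in KO (log2 2.84, SE 0.0584, adjusted p = 3.09e-11) and 6.88-fold in WT (log2 2.78, SE 0.0578, adjusted p = 9.38e-11). No library under DMXAA came near those under DMSO. Il15ra had 5854, 6788 and 7269 in KO under DMXAA against 882, 1038 and 969 in KO under DMSO, and 7685, 6907 and 6708 in WT under DMXAA against 1203, 919 and 928 in WT under DMSO. Its rise was 6.87-fold in KO (log2 2.78, SE 0.0883, adjusted p = 1.03e-09) and 7.02-fold in WT (log2 2.81, SE 0.104, adjusted p = 7.01e-09).

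The IL-18 pair rose unequally. Il18 (chromosome 9, 50554827 to 50581840, plus strand) encodes IL-18, a caspase-1 substrate that prompts NK and T cells to make interferon gamma. Its normalized counts were 3607, 3756 and 4021 in KO under DMXAA against 1255, 1229 and 1011 in KO under DMSO, and 3125, 2884 and 3132 in WT under DMXAA against 1112, 961 and 931 in WT under DMSO. It rose 3.27-fold in KO (log2 1.71, SE 0.0867, adjusted p = 4.15e-08) and 3.05-fold in WT (log2 1.61, SE 0.08, adjusted p = 6.96e-08). Il18bp (chromosome 7, 102014885 to 102018690, minus strand) encodes the IL-18 binding protein and is known as an interferon-inducible gene. Its normalized counts were 47087, 49175 and 46513 in KO under DMXAA against 1173, 1062 and 862 in KO under DMSO, and 53493, 52456 and 57100 in WT under DMXAA against 2384, 2115 and 2471 in WT under DMSO. The rise was 46.4-fold in KO (log2 5.54, SE 0.094, adjusted p = 7.21e-12) and 23.4-fold in WT (log2 4.55, SE 0.0644, adjusted p = 8.85e-12). Il18bp shares 2.64% of its exon bases with Numa1 on the opposite strand.

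Il27 and Il10 were low genes that rose in both genotypes. Il27 (chromosome 7, 126589010 to 126594941, minus strand) encodes the subunit of IL-27 that pairs with EBI3. It had 344, 383 and 422 normalized counts in KO under DMXAA against 126, 121 and 122 in KO under DMSO, and 306, 344 and 277 in WT under DMXAA against 136, 115 and 122 in WT under DMSO. The rise was 3.08-fold in KO (log2 1.62, SE 0.122, adjusted p = 9.61e-07) and 2.47-fold in WT (log2 1.30, SE 0.134, adjusted p = 1.6e-05). Il27 shares 10.1% of its exon bases with Apobr on the opposite strand, and since the strand setting of the counting is not given in the sources used here, reads in those bases cannot be assigned to either gene with certainty.

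Il10 (chromosome 1, 131019845 to 131024974, plus strand) encodes a cytokine that restrains macrophage activation through STAT3. Its normalized counts were 199, 179 and 201 in KO under DMXAA against 25.1, 35.6 and 29.3 in KO under DMSO, and 286, 257 and 280 in WT under DMXAA against 67.4, 56 and 57.4 in WT under DMSO. The DMXAA and DMSO libraries did not overlap in either genotype. Il10 rose 6.31-fold in KO (log2 2.66, SE 0.196, adjusted p = 7.97e-07) and 4.5-fold in WT (log2 2.17, SE 0.147, adjusted p = 7.03e-07).

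**Figure D2:**
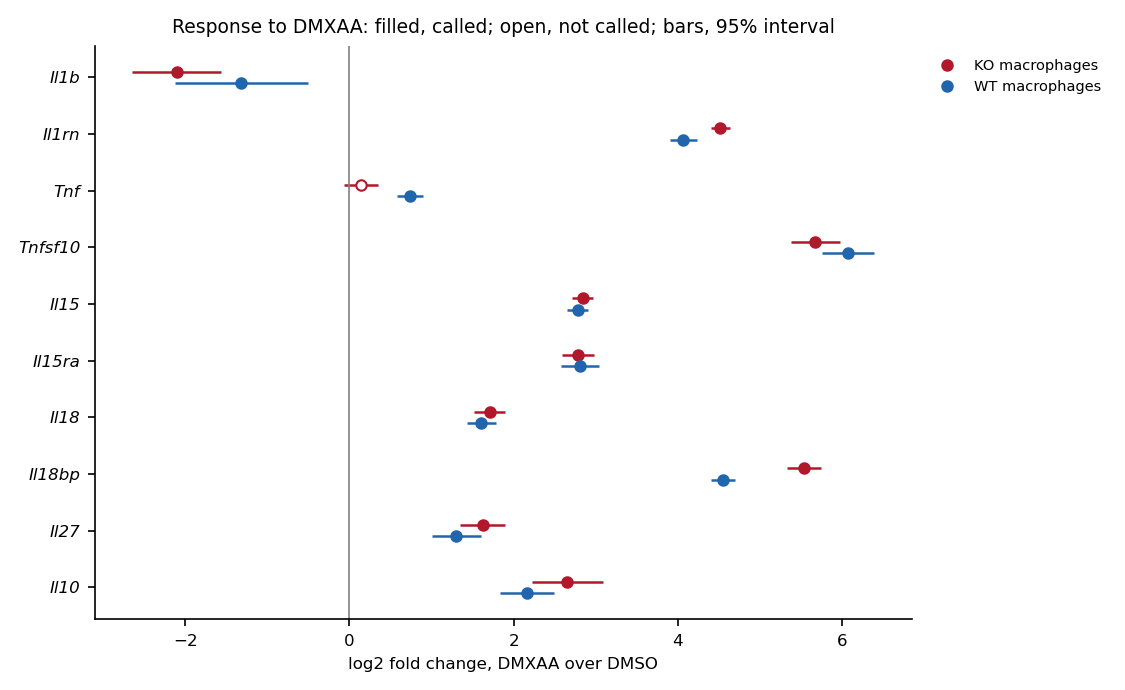
Log2 fold change of DMXAA over DMSO in KO and in WT macrophages for each of the 10 genes, with 95% intervals of the limma fit over 3 libraries per group; filled points were called and open points were not. Il1b lies below 0 in both genotypes (-2.10 in KO and -1.31 in WT), Tnf in KO spans 0, and the other 8 genes lie between 1.30 and 6.07.

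In the authors' deposited comparison tables, Tnf had a log2 change of 0.14 in KO (adjusted p = 0.285) and 0.74 in WT (adjusted p = 3.48e-18), and Il1b one of -2.09 in KO (adjusted p = 1.66e-14) and -1.42 in WT (adjusted p = 0.000215). Rescaling all libraries to the same total moved the median log2 change of all genes to -0.39 in KO and -0.32 in WT, and rescaling to the same upper quartile to -0.17 in KO and -0.18 in WT. Higher genes then made up 20.3% and 34.9% of those called in KO, against 50.6% as deposited, and 22.4% and 32.7% in WT, against 50.5%. Under both rescalings Il1b remained lower and 8 genes other than Tnf remained higher in both genotypes. Monocyte markers moved with the treatment: Ly6c2, Ccr2 and Plac8, all 3 detected, summed to 204 to 257 RPM in KO under DMXAA against 9.83 to 10.8 in KO under DMSO, and to 355 to 376 in WT under DMXAA against 11 to 15.2 in WT under DMSO. Their part in the cytokine responses was not tested.

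Levels of different genes were compared as reads per kilobase of exon per M reads (RPKM). Under DMXAA, Il18bp was the most abundant of the 10 transcripts, with an RPKM of 151 ± 4.21 in KO and 183 ± 7.99 in WT (SD, n = 3). Il15 followed at an RPKM of 46.4 ± 1.63 in KO and 39.9 ± 2.04 in WT, then Il1rn at 39.6 ± 1.18 in KO and 34.0 ± 2.25 in WT, and Il18 at 35.4 ± 1.77 in KO and 30.2 ± 1.55 in WT. Il15ra came next at an RPKM of 14.3 ± 1.47 in KO and 16.3 ± 1.32 in WT, and Tnf after it at 7.91 ± 0.752 in KO and 11.2 ± 0.638 in WT. The order below Tnf was Il27, Tnfsf10, Il10 and Il1b in KO and Tnfsf10, Il27, Il10 and Il1b in WT. Il1b was lowest at an RPKM of 0.431 ± 0.14 in KO and 0.668 ± 0.21 in WT. Under DMXAA, no 2 neighbours in either order overlapped in their libraries.

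Under DMSO the order was another one. Il18 led with an RPKM of 14.2 ± 1.79 in KO and 12.4 ± 1.13 in WT, and Tnfsf10 was last at 0.0577 ± 0.00568 in KO and 0.0692 ± 0.0127 in WT. Il18bp had an RPKM of 4.30 ± 0.692 in KO, below Tnf and Il15, and of 9.77 ± 0.727 in WT, above both. Il15ra, Il1b and Il1rn followed one another in KO at RPKM values of 2.73 ± 0.242, 2.40 ± 0.52 and 2.26 ± 0.0413, and these neighbours overlapped, as did Tnf and Il15. In WT, Il15ra, Il1rn, Il1b and Il27 followed one another at RPKM values of 2.91 ± 0.443, 2.53 ± 0.235, 2.24 ± 1.35 and 1.55 ± 0.124, each overlapping with the next. Leaving the 10 most abundant genes out of the total raised every level by a factor of 1.13 to 1.18, without a change of order within a library.

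**Figure D3:**
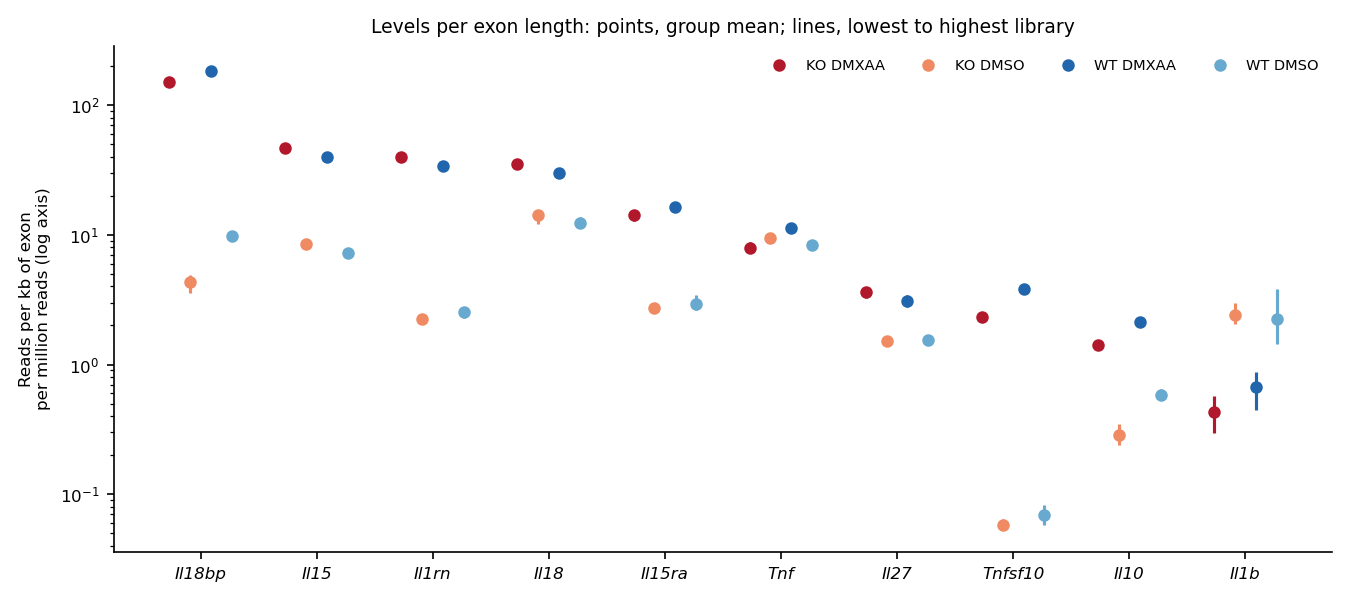
Level per exon length (reads per kilobase of exon per M reads, log axis) of each gene in KO DMXAA, KO DMSO, WT DMXAA and WT DMSO; points are means of 3 libraries and lines run from the lowest to the highest library. Il18bp stands highest under DMXAA (151 in KO and 183 in WT), Il18 highest under DMSO, and Il1b is the only one of the 10 genes lower under DMXAA in both genotypes.

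Within a library, the ratio of reads of 2 genes does not depend on the scaling between libraries. The reads of Il1rn per read of Il1b were 201 to 374 in KO under DMXAA against 2.23 to 3.17 in KO under DMSO, and 106 to 233 in WT under DMXAA against 2.11 to 4.96 in WT under DMSO. The log2 ratio was higher under DMXAA by 6.63 in KO and by 5.38 in WT. Within 1 genotype the exact permutation test of 3 against 3 libraries, two-sided, can give no p below 0.1, which both comparisons had. With labels permuted within each genotype the difference was 6.01 (exact permutation p = 0.005, the smallest possible, and 0.03 adjusted over 18 ratio tests), higher in 6 of 6 DMXAA libraries.

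Il18bp had fewer reads than Il18 in KO under DMSO and more in each other group. The ratio of Il18bp over Il18 was 11.6 to 13.1 in KO under DMXAA against 0.852 to 0.935 in KO under DMSO, and 17.1 to 18.2 in WT under DMXAA against 2.14 to 2.65 in WT under DMSO. The log2 ratio was higher under DMXAA by 3.83 in KO and by 2.94 in WT, and by 3.39 over both genotypes (exact permutation p = 0.005, adjusted 0.03). Between genotypes, the log2 ratio of KO minus that of WT was -0.51 under DMXAA and -1.39 under DMSO, without overlap of the libraries. With labels permuted within each treatment the difference was -0.95 (exact permutation p = 0.005, adjusted 0.03), lower in 6 of 6 KO libraries.

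For Il15ra over Il15 no change with treatment was detected. The ratio was 0.562 to 0.644 in KO under DMXAA and 0.544 to 0.714 in KO under DMSO, and 0.757 to 0.851 in WT under DMXAA and 0.693 to 0.949 in WT under DMSO. The log2 difference between DMXAA and DMSO over both genotypes was -0.015 (exact permutation p = 0.89, adjusted 0.9), from -0.069 to 0.053 with 1 library left out. Between genotypes the log2 ratio of KO minus that of WT was -0.36 over both treatments (exact permutation p = 0.01, adjusted 0.045), without overlap of the libraries under DMXAA and with overlap under DMSO. The genotype difference of Il1rn over Il1b was 0.85 under DMXAA and -0.39 under DMSO, and 0.23 over both treatments (exact permutation p = 0.51, adjusted 0.612).

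**Figure D4:**
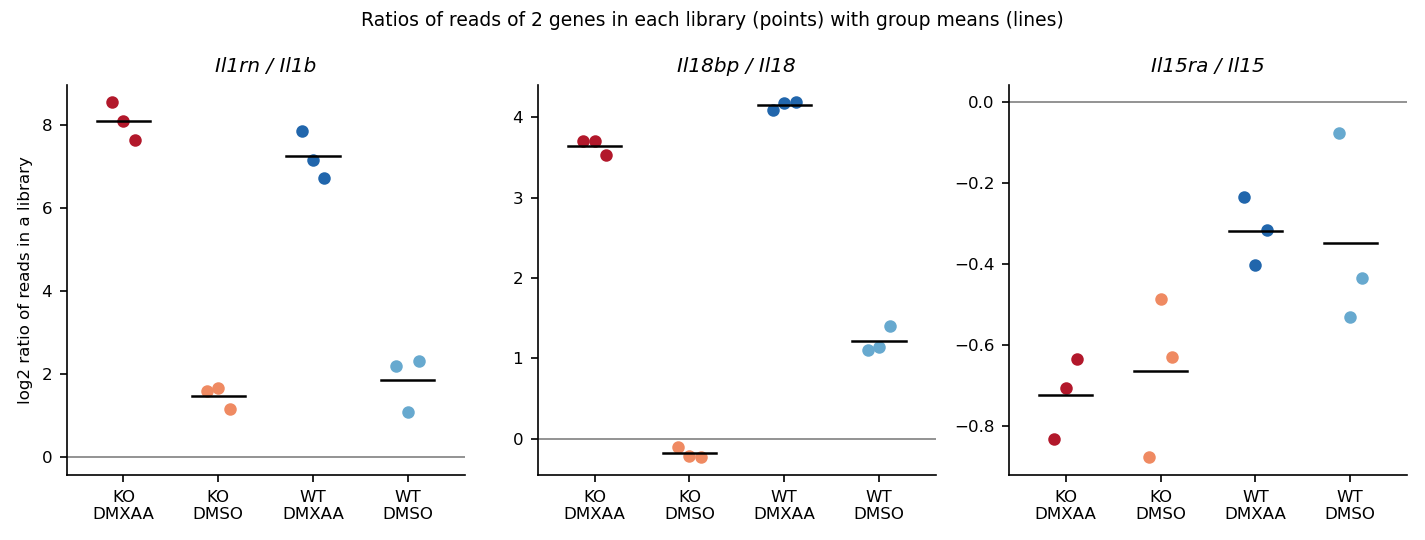
Log2 ratio of reads of 2 genes in each library for Il1rn over Il1b, Il18bp over Il18 and Il15ra over Il15; points are the 3 libraries of each group, black lines are group means and the grey line marks equal reads. Il18bp over Il18 averages 3.65 in KO under DMXAA and -0.18 in KO under DMSO, against 4.16 in WT under DMXAA and 1.22 in WT under DMSO.

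KO and WT differed in 7 of the 10 genes under DMXAA and in 2 under DMSO. Under DMXAA, 21.5% of all tested genes were called between KO and WT (10.7% higher in KO and 10.8% lower). Of the 10 cytokine genes, 3 were higher in KO (Il1rn, Il15 and Il18), 4 were lower (Tnf, Tnfsf10, Il18bp and Il10) and 3 were not called. The libraries of KO and WT did not overlap for the same 7 genes and for 37.6% of all genes (19.1% higher and 18.5% lower in KO). None of the 10 reached a 2-fold difference, against 2.67% of all genes. Under DMSO, 16.6% of all genes were called (7.04% higher and 9.58% lower), and of the 10 cytokine genes Il18bp and Il10 were lower in KO, both by more than 2-fold, and 8 were not called. Without KO replicate 1, 1399 genes were called under DMSO, against 2129 with all libraries. Under DMSO the libraries of KO and WT did not overlap for 34.7% of all genes (17.1% higher and 17.6% lower in KO), and for 4 of the 10, with Il15 higher and Il1rn, Il18bp and Il10 lower. The comparisons under DMXAA and under DMSO share no library.

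Il18bp was lower in KO in both treatments. Its normalized counts, on the scale of the table of each treatment, were 42206, 43954 and 41588 in KO and 49460, 48214 and 52625 in WT under DMXAA, and 1277, 1159 and 936 in KO and 2671, 2372 and 2765 in WT under DMSO. The log2 difference was -0.23 under DMXAA (SE 0.0412, adjusted p = 0.00241) and -1.22 under DMSO (SE 0.109, adjusted p = 3.21e-05), a KO level of 0.85 and 0.43 times that of WT. The authors' deposited table gave -1.21 under DMSO (adjusted p = 1.4e-24).

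Il10 was likewise lower in KO. It had normalized counts of 178, 160 and 180 in KO and 264, 236 and 258 in WT under DMXAA, and of 27.3, 38.9 and 31.8 in KO and 75.5, 62.8 and 64.2 in WT under DMSO. No libraries of KO and WT overlapped. The log2 difference was -0.55 under DMXAA (SE 0.117, adjusted p = 0.00736) and -1.03 under DMSO (SE 0.242, adjusted p = 0.0137). Under DMSO it rested on 28 to 80 reads per library and was not called without KO replicate 1 (-0.92, adjusted p = 0.0524) or without WT replicate 1 (-0.95, adjusted p = 0.0525).

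Tnfsf10 and Tnf were lower in KO under DMXAA. Of the 9 other tested ligands of the TNF family, 2 were lower and 7 were not called, against 10.8% lower and 10.7% higher over all tested genes. The median log2 difference of these 9 was 0.16. Tnfsf10 had normalized counts of 1093, 1155 and 1196 in KO and 1798, 1853 and 1814 in WT, a log2 difference of -0.67 (SE 0.0602, adjusted p = 3.72e-05). Tnf had 1132, 1147 and 1344 in KO and 1720, 1557 and 1703 in WT, a log2 difference of -0.46 (SE 0.0791, adjusted p = 0.00201). Neither gene's groups overlapped. Under DMSO neither was called: Tnfsf10 had a log2 difference of -0.27 (95% interval -0.92 to 0.38, adjusted p = 0.598) and Tnf one of 0.14 (95% interval -0.05 to 0.32, adjusted p = 0.317), with overlapping libraries for both.

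Il1rn, Il15 and Il18 were higher in KO under DMXAA by nearly the same amount. Il1rn had normalized counts of 19583, 20943 and 20648 in KO and 18055, 16870 and 16006 in WT (log2 0.27, SE 0.0491, adjusted p = 0.00325). Il15 had 9336, 9904 and 10095 in KO and 8352, 8390 and 7695 in WT (log2 0.26, SE 0.0493, adjusted p = 0.00347). Il18 had 3234, 3357 and 3595 in KO and 2890, 2651 and 2886 in WT (log2 0.27, SE 0.0588, adjusted p = 0.00762). For each of these genes all KO libraries lay above all WT libraries. Under DMSO their log2 differences were -0.18 for Il1rn (95% interval -0.36 to -0.0035, adjusted p = 0.162), 0.21 for Il15 (95% interval 0.05 to 0.36, adjusted p = 0.0738) and 0.18 for Il18 (95% interval -0.05 to 0.40, adjusted p = 0.291), none of them called.

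Il1b, Il15ra and Il27 were called in neither treatment. Il1b had normalized counts of 51.8, 75.9 and 102 in KO and 76.9, 118 and 150 in WT under DMXAA (log2 -0.58, 95% interval -1.22 to 0.06, adjusted p = 0.191), and of 354, 335 and 500 in KO and 245, 635 and 246 in WT under DMSO (log2 0.21, 95% interval -0.48 to 0.89, adjusted p = 0.703). WT replicate 2 decided the second value: without it the log2 difference was 0.66 (adjusted p = 0.0318). Il15ra had a log2 difference of -0.14 under DMXAA (95% interval -0.32 to 0.03, adjusted p = 0.235) and -0.11 under DMSO (95% interval -0.36 to 0.13, adjusted p = 0.554). Il27 had one of 0.27 under DMXAA (95% interval 0.0047 to 0.53, adjusted p = 0.142) and -0.05 under DMSO (95% interval -0.37 to 0.27, adjusted p = 0.848).

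Markers of other cell types moved with the genotype. The monocyte markers Ly6c2, Ccr2 and Plac8 summed to 204 to 257 RPM in KO against 355 to 376 in WT under DMXAA, and to 9.83 to 10.8 in KO against 11 to 15.2 in WT under DMSO. Of 8 neutrophil markers 7 had reads, Elane had none, and they summed to 0.734 to 0.808 RPM in KO under DMXAA against 2.51 to 2.89 in WT under DMXAA, and to 0.733 to 1.18 in KO under DMSO against 4.74 to 6.71 in WT under DMSO. Stromal markers, all 5 detected, summed to 0.868 to 5.72 RPM in KO under DMSO against 0.294 to 0.884 in WT under DMSO, with overlap of the libraries. Under DMXAA they summed to 0.377 to 0.755 in KO against 0.0216 to 0.348 in WT, without overlap. Their part in the cytokine differences was not tested.

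**Figure D5:**
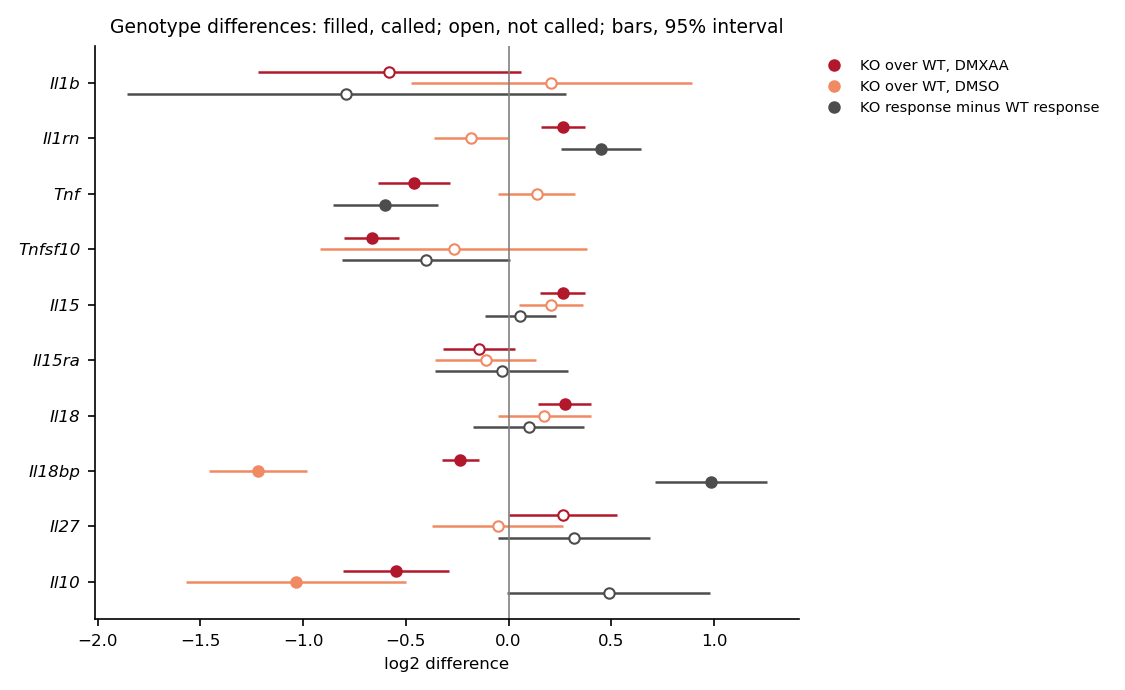
Log2 differences of KO over WT under DMXAA and under DMSO, and the KO response to DMXAA minus the WT response, for each of the 10 genes, with 95% intervals of the limma fit; filled points were called and open points were not. Il18bp and Il10 lie below 0 in both treatments, and the difference of responses was called for Il1rn (0.45), Tnf (-0.60) and Il18bp (0.99).

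The responses of the genotypes differed for 3 of the 10 genes, tested as an interaction over all 12 libraries, in which 8.6% of all genes were called (5.37% higher and 3.24% lower). The KO response exceeded the WT response by 0.99 on the log2 scale for Il18bp (SE 0.127, adjusted p = 0.00024) and by 0.45 for Il1rn (SE 0.0904, adjusted p = 0.0063). For Tnf the KO response was below the WT response, with a difference of -0.60 (SE 0.12, adjusted p = 0.00596). The difference for Il18bp goes with a gap between genotypes of -1.22 under DMSO that was -0.23 under DMXAA. The differences for Tnf and Il1rn go with genotype gaps that were called under DMXAA only.

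For the other 7 genes no difference of responses was called. The intervals were widest for the low genes, from -1.86 to 0.28 for Il1b (log2 difference -0.79, adjusted p = 0.396), from -0.0056 to 0.98 for Il10 (0.49, adjusted p = 0.232) and from -0.81 to 0.0092 for Tnfsf10 (-0.40, adjusted p = 0.238). They were narrower for Il15, from -0.11 to 0.23 (0.06, adjusted p = 0.754), and for Il18, from -0.17 to 0.37 (0.10, adjusted p = 0.731). Il15ra had a difference of -0.03 (95% interval -0.36 to 0.29, adjusted p = 0.938) and Il27 one of 0.32 (95% interval -0.05 to 0.69, adjusted p = 0.308).

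Genes that act with these cytokines were followed in 11 lists of 112 genes. In KO, 49 of 87 tested list genes rose with DMXAA and 18 fell, with a median log2 change of 0.63, and in WT 48 of 85 rose and 15 fell, with a median of 0.32. The list of interferon-responsive genes had the largest median of the 11: all 8 rose in both genotypes, with a median of 6.64 in KO and 5.85 in WT. Isg15, a ubiquitin-like modifier, rose by 6.22 in KO and 5.73 in WT.

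On the IL-1 and IL-18 side, Il1r2, a decoy receptor for IL-1, rose with a log2 change of 5.65 in KO (SE 0.576, adjusted p = 9.82e-06) and 3.05 in WT (SE 0.839, adjusted p = 0.00954). Il1r2 had a mean normalized count below 10 over the DMSO libraries, so these values rest on low counts there. Its KO response minus its WT response was 2.65 (SE 1.10, adjusted p = 0.171), which was not called. The signalling receptor Il1r1 rose by 1.07 in KO (SE 0.308, adjusted p = 0.0108) and 1.62 in WT (SE 0.326, adjusted p = 0.00161). Of 8 tested ligand and receptor genes of these families 2 rose and 3 fell in KO, and of 7 in WT 2 rose and 2 fell. Those that fell in KO were Il1rl1, the receptor of IL-33, at -2.99 (SE 0.943, adjusted p = 0.0171), Sigirr, an inhibitory receptor of the family, at -0.55 (SE 0.177, adjusted p = 0.0185), and the coreceptor Il1rap at -0.26 (SE 0.0946, adjusted p = 0.0313). Il1rl1 had a mean normalized count below 10 over the DMXAA libraries. Those that fell in WT were Il18rap, an IL-18 receptor chain, at -1.57 (SE 0.471, adjusted p = 0.0148), and Il1rl2, an IL-36 receptor chain, at -1.07 (SE 0.216, adjusted p = 0.00169). Of 10 inflammasome genes 6 rose and 3 fell in each genotype. Casp1, the protease that matures IL-1 beta and IL-18, rose by 2.01 in KO (SE 0.0435, adjusted p = 4.71e-11) and 1.80 in WT (SE 0.0663, adjusted p = 6.87e-09), and Casp4, the sensor protease of the noncanonical inflammasome, by 2.63 in KO (SE 0.064, adjusted p = 1.21e-10) and 2.68 in WT (SE 0.0767, adjusted p = 1e-09). Of 8 adaptors of IL-1 and Toll-like receptors 3 rose and 4 fell in KO, and 2 rose and 2 fell in WT, with Myd88 higher by 1.42 in KO and 1.32 in WT and Irak3, an inhibitory kinase homologue, at -0.49 in KO and -0.50 in WT.

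On the TNF and TRAIL side, 7 of 13 genes of TNF receptors, shedding and signalling rose and 3 fell in KO, and 8 rose and 2 fell in WT. Cflar, which encodes the caspase-8 inhibitor cFLIP, rose by 1.19 in KO (SE 0.0587, adjusted p = 3.35e-08) and 1.23 in WT (SE 0.0722, adjusted p = 2.39e-07). Rhbdf2, which helps ADAM17 to reach the surface, rose by 0.69 in KO (SE 0.0496, adjusted p = 6.79e-07) and 0.86 in WT (SE 0.0543, adjusted p = 4.24e-07). Adam17 itself, which encodes the protease that sheds TNF, fell by 0.71 in KO (SE 0.0535, adjusted p = 9.77e-07) and by 0.47 in WT (SE 0.0639, adjusted p = 0.000118). Of 7 tested genes of TRAIL receptors and death signalling, 5 rose and 1 fell in KO, and 5 rose and 2 fell in WT. Of the other ligands of the family, 5 of 9 tested rose and none fell in KO, and 4 of 8 rose and 1 fell in WT. Tnfsf8, the CD30 ligand, rose by 4.53 in KO (SE 0.284, adjusted p = 2.23e-07) and 4.31 in WT (SE 0.238, adjusted p = 1.51e-07).

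Among partners of IL-15, IL-27 and IL-10, Il2rg, the common gamma chain of the IL-15 receptor, rose by 3.88 in KO (SE 0.054, adjusted p = 1.87e-12) and 3.11 in WT (SE 0.0422, adjusted p = 6.39e-12). Of 6 tested IL-15 receptor and signalling genes 3 rose in each genotype and none fell. Ebi3, the partner of the Il27 product, fell by 0.42 in KO (SE 0.0645, adjusted p = 0.000216), and of 5 tested genes of its list 3 rose and 1 fell in KO and 2 rose in WT. Of 7 IL-10 receptor and target genes 5 rose in KO and 6 in WT, and none fell, with Socs3 higher by 1.61 and Bcl3 by 0.96 in both genotypes. Of 6 other cytokine genes tested, Il7 and Csf1 rose and Il16, Osm and Tgfb1 fell in both genotypes. Csf1, the growth factor of macrophages, rose by 3.58 in KO (SE 0.132, adjusted p = 3.33e-09) and 3.72 in WT (SE 0.108, adjusted p = 1.13e-09).

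Between genotypes, 15 of 86 tested list genes were higher in KO and 16 lower under DMXAA, and 10 of 83 were higher and 13 lower under DMSO. Over all tested genes, 10.7% were higher and 10.8% lower under DMXAA, and 7.04% higher and 9.58% lower under DMSO. For the interaction the shares over all tested genes were 5.37% higher and 3.24% lower. Of the 8 interferon-responsive genes 7 were lower in KO under DMSO, with a median log2 difference of -1.03, and 6 were lower and 1 higher under DMXAA, with a median of -0.24. Irf7, a master regulator of type I interferon genes, had a log2 difference of -1.98 under DMSO (SE 0.108, adjusted p = 1.74e-06), and the KO response exceeded the WT response for 7 of the 8. Il2rg had a log2 difference of -0.78 under DMSO (SE 0.0599, adjusted p = 1.34e-05) and a response larger by 0.76 in KO (SE 0.068, adjusted p = 1.35e-05). Tnfaip3, an inhibitor of TNF signalling, had a log2 difference of -0.36 under DMXAA (SE 0.0789, adjusted p = 0.00812) and of 0.40 under DMSO (SE 0.0651, adjusted p = 0.00156), and its KO response was below the WT response, with a difference of -0.76 (SE 0.0985, adjusted p = 0.00024). Tnfsf13b, which encodes the B cell factor BAFF, had one of -1.13 under DMXAA (SE 0.119, adjusted p = 9.13e-05). Of the 7 IL-10 receptor and target genes 4 were higher in KO under DMXAA and none lower, among them Socs3 by 0.64 (SE 0.125, adjusted p = 0.00464), while Il10 itself was lower. Under DMSO the log2 difference of Socs3 was also 0.64, with a wider error (SE 0.338, adjusted p = 0.235), and was not called.

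The genes most like each cytokine gene over the 12 libraries were sought among 10387 genes with at least 1 read per M on average, as the smallest root mean square difference (in log2 units) of profiles centred on their own mean. Il1rn was closest to Csprs (0.138), Cd86 (0.165) and H2-T9 (0.185), Il18bp to Ms4a6b (0.151), Mx2 (0.203) and Ifi209 (0.248), and Tnfsf10 to Gbp3 (0.218), Fgl2 (0.254) and Slamf9 (0.263). Il15 was closest to Casp4 (0.13), Tapbpl (0.15) and Ifitm3 (0.165), and Il15ra to Tor3a (0.0988), Daxx (0.102) and H2-T23 (0.111). Il18 was closest to Eng (0.121), Tdrd7 (0.131) and Pim1 (0.139), Il27 to Ptpn22 (0.116), Myd88 (0.117) and Slc25a38 (0.12), and Il10 to Axl (0.155) and Cp (0.181), among others. Tnf, whose own profile varied little (0.21), was closest to Bbc3 (0.101), Hk1 (0.113) and Rnf14 (0.116). Il1b had the least close neighbours, Ccl27a (0.314), Pcgf2 (0.379) and Plxna3 (0.379), against a spread of its own of 1.09.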

How the data were processed

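Per the labels' protocols, RNA was taken with an RNeasy kit, strand-specific mRNA libraries were made with a DNBSEQ kit, and the submitters' processing notes name mm10, HISAT2 and featureCounts, with no version. The authors deposited normalized counts per gene, a signal scaled separately in each of 4 tables of 6 libraries (KO, WT, DMXAA, DMSO), beside tables of log2 fold changes, p-values and adjusted p-values. Per the file headers, these tables also hold a test score, the fold change over its error, which was not used. Reads were recovered as multiples of a column's smallest step, and 100% of values were whole (tolerance 0.01).

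Each comparison of 2 groups was fitted in their shared table, with limma 3.58.1 (lmFit, eBayes with trend, R 4.3.3) on log2(normalized count + 1), for genes with a mean of at least 10, two-sided, Benjamini-Hochberg adjusted over all tested genes and called below 0.05. Log2 values carry that pseudocount, which understates changes of low genes. The interaction was fitted over 12 libraries from the DMXAA and DMSO tables. All 10 genes passed the filter in every comparison. Errors of log2 values are standard errors, those of levels SDs, and n is 3 libraries per group. Ratios used reads plus 0.5, with exact permutation tests over libraries (scipy 1.17.1). Levels used the union of exons in GENCODE vM21, the source of all gene coordinates. Alternatives were edgeR 4.0.16 (quasi-likelihood) and DESeq2 1.42.0 on the recovered reads, pseudocounts of 0.1 and 10, no filter, rescaled libraries, replicate blocks and leaving out each library. The scripts were tested on simulated data.

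The 10 genes, the lists and the naming rule were chosen with earlier results of these data known. The rule names the 10 genes throughout, Mgmt as a check, from each list every called gene where 5 or fewer were called and otherwise the 3 with the smallest p, and the 3 genes most like each cytokine gene. From these a selection is printed, and some genes of the lists are not reported here.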

Additional observations from a re-analysis of the deposited data

Results flagged for a closer look

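The response to DMXAA differed between KO and WT for 3 of the 10 genes, by limma's interaction term over 12 libraries. The KO response minus the WT response was 0.99 on the log2 scale for Il18bp (SE 0.127, adjusted p = 0.00024), 0.45 for Il1rn (SE 0.0904, adjusted p = 0.0063) and -0.60 for Tnf (SE 0.12, adjusted p = 0.00596). All 3 were called under every alternative run. The Tnf value combines a KO response of 0.14, which was not called, with a WT response of 0.74.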

How the results depend on the processing

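Of the 31 values called for the 10 genes, 472 of 474 alternative values kept direction and call; both exceptions are Il10 between genotypes under DMSO (-0.92 and -0.95, adjusted p = 0.0524 and 0.0525). The numbers of members called were 9 in KO, 10 in WT, 7 under DMXAA and 3 for the interaction in every fit with 1 library left out, and 1 to 3 under DMSO. The genes called over all were then 1399 (without KO replicate 1) to 1897 under DMSO, against 2129 with all libraries.

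Changed signs belong to values that were not called. Tnf in KO was -0.25 with libraries rescaled to the same total and -0.028 with the same upper quartile, and the Il15 interaction was -0.012 with the same total. With 1 library left out, the KO minus WT values under DMSO ran from -0.020 to 0.66 for Il1b, from -0.18 to 0.016 for Il15ra and from -0.10 to 0.015 for Il27, and the interaction from -0.16 to 0.054 for Il15ra and from -0.0023 to 0.15 for Il18. The log2 ratio change of Il15ra over Il15 with DMXAA ran from -0.17 to 0.029 in KO, from -0.062 to 0.17 in WT and from -0.069 to 0.053 over both. Of the calls gained, Il15 under DMSO reached an adjusted p of 0.0485 with the same total. The cause was not tested.

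Of the genes called between genotypes, those higher in KO made up 34.3% under DMXAA after rescaling to the same total, against 49.7% as deposited, and, under DMSO, 50.9% after that rescaling and 31.2% after rescaling to a common upper quartile, against 42.4%. Of those called for the interaction, 39.2% had the larger value in KO with the same total and 64.6% with the same upper quartile, against 62.4%. On the recovered reads, edgeR's quasi-likelihood test called 8475 genes in KO, 8003 in WT, 2652 between genotypes under DMXAA, 2127 under DMSO and 1123 for the interaction, and DESeq2 8282, 7877, 2892, 2421 and 1494.

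Replicate numbers did not pair the libraries outside the WT response. Over all comparisons, deviations of same-numbered libraries correlated at -0.098 to 0.12. Each library correlated best with its own number only in the WT response (6 of 6 libraries, against 1 of 6 in the other comparisons), a hint from the data and not the design. The main fits used no pairing, and all 10 genes were still called in WT with a block by title number. With the title number as a replicate block, 8267 genes were called in KO, 7865 in WT, 2491 between genotypes under DMXAA, 1915 under DMSO and 989 for the interaction. Il1b between genotypes under DMXAA was then called (-0.58, adjusted p = 0.0483), as was Tnf in KO with a replicate block by library name (0.26, adjusted p = 0.0459). The ratio of Il15ra over Il15 between genotypes (-0.36) had an exact sign-flip permutation p of 0.0625 over pairs of the same title number.

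Il10 and Tnfsf10 under DMSO rest on few reads, which limits what can be seen between genotypes there.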
